A study of Mus musculus with 4 samples.

Results

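The imprinted Dlk1-Dio3 cluster lies near the end of mouse chromosome 12 and is represented here by 7 of the 37310 genes in the expression table, Dlk1, Meg3, Rtl1, Rian, Mirg, Dio3os and Dio3. These genes were chosen by symbol and position, and they were selected on the contrast of wild-type and Bmal1-/- cells that is described below, with its result known. The values and fold changes of the members are therefore a description and carry no test. Tests (limma, Benjamini-Hochberg adjusted p over 14510 genes) are given only for genes outside the cluster. Of the 7 members, 6 passed the filter of a mean normalized value of at least 10 over the 4 libraries, and Dlk1 did not.

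The study asked how the loss of Bmal1, a transcription factor of the molecular clock, changes gene expression in mouse embryonic stem cells (mESCs). Libraries of mRNA were made from 2 wild-type and 2 Bmal1-/- cultures, with 21737170 and 21504265 reads on genes for wild-type and 23329034 and 23021702 for Bmal1-/-. All 4 cultures were JM8 mESCs, a line of the C57BL6/N strain, kept without feeder cells on gelatin in 2i + LIF medium. In this medium 1 µM PD0325901 blocks Mek, 3 µM CHIR99021 blocks Gsk3, and leukemia inhibitory factor (LIF) maintains self-renewal. The wild-type group is the unmodified JM8 line. The Bmal1-/- group is 1 clone derived from JM8 by CRISPR/Cas9, with mutations in both alleles. The authors describe frame shifts with early stop codons and no detectable Bmal1 mRNA by RT-qPCR or protein by Western blot, and their methods speak of a shorter version of the protein. Each genotype is thus 1 line, and an effect of the genotype and a difference between the lines that arose otherwise cannot be told apart. With 2 libraries per genotype, p-values measure only the spread between these samples.

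Bmal1 itself appears in the table as Arntl (ENSMUSG00000055116, mm9 chr7:120350979-120457636). Wild-type libraries had normalized values of 678 and 733, and Bmal1-/- libraries 556 and 590.3. Arntl was lower by a log2 fold change of −0.30 (limma, Benjamini-Hochberg adjusted p = 0.0011), and its mRNA persisted in every library, at 81.2% of the wild-type mean in the Bmal1-/- libraries. The genotypes are those of the sample labels.

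The pluripotent identity of the cells was examined with 8 marker genes, Pou5f1, Nanog, Sox2, Zfp42, Klf4, Esrrb, Tbx3 and Tcfcp2l1, of which all 8 had a mean of at least 3097. Their summed normalized values were 112345 and 109488 in wild-type and 118774 and 120884 in Bmal1-/- libraries. Tcfcp2l1 was the most abundant by the mean over the 4 libraries. In wild-type libraries Pou5f1 was above it, with 28677 and 29164 against 27883 and 25102. Of the 8 genes, 4 were higher and 4 (Pou5f1, Sox2, Zfp42 and Esrrb) lower at a limma adjusted p-value under 0.05. Among all genes tested, 24.0% were higher and 28.6% lower. The calls of Klf4 and of the 4 lower genes were lost under some alternatives. Without Tcfcp2l1 the sums overlapped, with 84462 and 84386 against 84394 and 85615. The markers of mESCs were thus present in every library. Among 7 fibroblast markers, Lum was at 0 in all libraries and Thy1 had the highest mean over the 4 libraries. The sums were 102 and 97.7 in wild-type and 132 and 123 in Bmal1-/- libraries. Among 7 trophoblast markers, Tpbpa was at 0, and the sums were 114 and 107 against 106 and 113. Cdx2 was the most abundant by the mean over the 4 libraries. In Bmal1-/- libraries Ascl2 was above it, with 56.4 and 62.0 against 39.5 and 37.2. Cdx2 was lower (log2 fold change −0.74, limma adjusted p = 0.0043, and 0.096 in DESeq2). Ascl2 was higher (0.58, limma adjusted p = 0.029), a call lost under 7 of 14 alternatives (adjusted p up to 0.21). Without Cdx2 the trophoblast sum was higher in Bmal1-/- libraries, with 50.6 and 41.4 against 66.7 and 75.3. The 6 muscle markers, with Myf5 at 0 and Des the most abundant, summed to 181 and 189 against 223 and 263. Primitive endoderm markers, 7 genes led by Gata4, summed to 175 and 195 against 204 and 201. Single genes of this list went opposite ways. Sox7 was lower, with 46.4 and 52.1 against 5.64 and 12.4 (log2 fold change −2.41, limma adjusted p = 6e-06), Sox17 was higher (1.27, limma adjusted p = 0.002), and Gata4 was higher (0.55, limma adjusted p = 0.0061, and up to 0.087 under alternatives). These sums are small beside those of the mESC markers. The sums of mESC, fibroblast, muscle and primitive endoderm markers were higher in both Bmal1-/- libraries, as Dio3 was. Without the most abundant gene of each list, this held for muscle, fibroblast overlapped (68.5 and 55.2 against 78.0 and 61.0), and primitive endoderm was lower (105 and 110.5 against 83.6 and 94.4). Sox7 and Cdx2 went in the direction of the maternal RNAs. The part of any marker in the values of the cluster was not tested.

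Genomic imprinting restricts transcription to 1 parental allele. At the Dlk1-Dio3 cluster the paternal chromosome expresses the protein-coding genes Dlk1, Rtl1 and Dio3, and the maternal chromosome expresses a series of non-coding RNAs that includes Meg3, Rian and Mirg together with many small nucleolar RNAs and microRNAs. A methylated control region between Dlk1 and Meg3 sets this pattern, and in mouse pluripotent cell lines the level of the maternal RNAs is known to vary between clones. Parental alleles cannot be distinguished in a gene-level table, so "maternally" and "paternally expressed" below refer to the known pattern and not to a measurement.

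The maternally expressed members are described first. Meg3 (ENSMUSG00000021268), a long non-coding RNA transcribed from the start of the maternal unit, lies at mm9 chr12:110779211-110809936 on the + strand. Rian (ENSMUSG00000091793) follows 62.9 kb downstream of the Meg3 start, at mm9 chr12:110842155-110899919, and is the host RNA of a tandem array of small nucleolar RNAs. Mirg (ENSMUSG00000091158), which carries a large group of microRNAs, starts 194.0 kb from Meg3 at mm9 chr12:110973191-110987665. All 3 are annotated as lincRNAs on the + strand. The windows of 300 bases around the annotated starts of Meg3 and Rian are shown because both RNAs moved alike in the libraries, and CG dinucleotides, the sites of DNA methylation, are in capitals. The sequences are from RefSeq on GRCm38.p6, and the coordinates on their lines are of that build.
Meg3 (chr12:109540746-109541045, + strand): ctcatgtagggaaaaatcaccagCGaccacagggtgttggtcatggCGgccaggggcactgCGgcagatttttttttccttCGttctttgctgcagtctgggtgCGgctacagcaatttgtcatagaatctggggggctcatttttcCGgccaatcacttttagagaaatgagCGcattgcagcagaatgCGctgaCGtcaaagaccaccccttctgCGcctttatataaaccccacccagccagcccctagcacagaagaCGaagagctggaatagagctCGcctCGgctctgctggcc
Rian (chr12:109603695-109603994, + strand): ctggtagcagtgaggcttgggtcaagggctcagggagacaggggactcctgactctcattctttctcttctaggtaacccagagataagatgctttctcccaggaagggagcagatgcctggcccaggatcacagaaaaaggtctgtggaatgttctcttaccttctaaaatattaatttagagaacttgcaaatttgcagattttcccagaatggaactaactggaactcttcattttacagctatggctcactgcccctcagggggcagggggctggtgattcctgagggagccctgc
The Meg3 window held 13 CG dinucleotides, a number reached by 37.9% of the 32851 promoter windows of this length, and the Rian window held 0. The window of Mirg held 10, and the median over all windows was 7.0. A second annotated start of Meg3 had 1.

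Meg3 was at normalized values of 1150.4 and 1028 in wild-type and of 592 and 557 in Bmal1-/- libraries. Both Bmal1-/- values lay below both wild-type values, and the mean was 52.7% of wild-type, a ratio with a 95% counting interval of 0.491 to 0.566. On the scale of log2(value + 1) the difference was −0.92 (standard error 0.07). Rian was the most abundant member in reads, with normalized values of 1935 and 1831 in wild-type and 986 and 995 in Bmal1-/- libraries. It came to 52.6% of wild-type (counting interval of the ratio 0.498 to 0.555), a log2 difference of −0.93 (standard error 0.05). The differences of Meg3 and Rian were thus close in size, and whether they differ was not tested. Mirg was at 138 and 120.0 in wild-type and at 57.3 and 44.8 in Bmal1-/- libraries. Its mean was 39.6% of wild-type (counting interval of the ratio 0.313 to 0.499), with a log2 difference of −1.33 (standard error 0.17). The Mirg values, like those of Meg3 and Rian, did not overlap between genotypes. In bulk RNA, fewer cells that express a gene and less RNA per cell cannot be told apart, and this holds for every member.

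**Figure D1:**
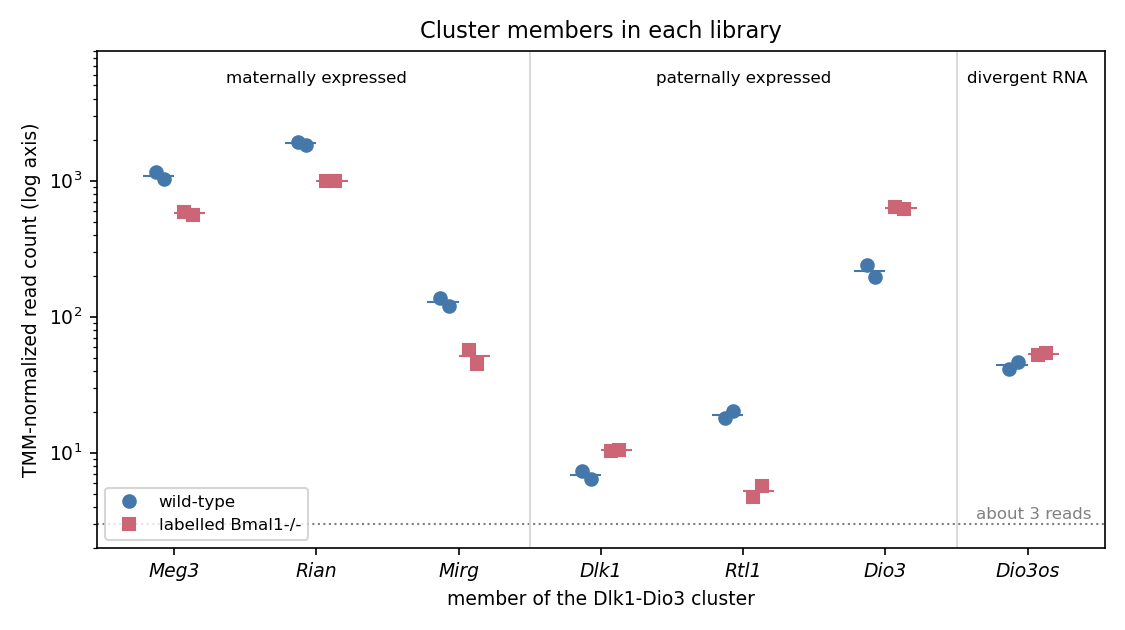
TMM-normalized read counts of the 7 cluster members on a log axis, with 1 point per library (circles, wild-type; squares, labelled Bmal1-/-; 2 libraries each), short lines at the group means and a dotted line at the value of about 3 reads. Meg3, Rian, Mirg and Rtl1 lie lower in the Bmal1-/- libraries, and Dlk1, Dio3os and Dio3 higher.

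Some markers of neural cells moved in the direction of the maternal RNAs and others did not. The sum over 7 neural markers was 3212 and 2938 in wild-type and 1482 and 1402 in Bmal1-/- libraries, and none of the 7 was at 0 in all libraries. Most of it came from Tubb3, a neuronal tubulin, with 2785 and 2512 against 1192 and 1088 (log2 fold change −1.22, limma adjusted p = 5.7e-13). Without Tubb3 the sum was 427 and 426 against 290.3 and 314. Of the 5 neural markers tested, Tubb3, Mtap2 (Map2) and Pax6 were lower and Elavl3 was higher, and Neurod1 did not pass the test. The shares over all genes tested were 28.6% lower and 24.0% higher. Under the filter, Syt1 had 0 and 1.06 in wild-type and 2.82 and 6.68 in Bmal1-/- libraries, and Rbfox3 overlapped between genotypes. The part of neural marker expression in the difference of Meg3, Rian and Mirg was not tested.

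The ratios between members do not depend on the scaling of a library. Rian over Meg3 was 1.68 and 1.78 in wild-type and 1.67 and 1.79 in Bmal1-/- libraries, so the ratio of these RNAs overlapped between genotypes. Mirg over Rian was 0.0713 and 0.0655 in wild-type and 0.0581 and 0.0451 in Bmal1-/- libraries, and Mirg over Meg3 was likewise below wild-type in both. The 3 maternal RNAs were therefore all lower, with Mirg lower by a larger factor than the RNAs upstream of it, a difference that was not tested.

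The non-coding units also host small RNA genes. Between Dlk1 and Dio3 the annotation lists 81 other genes, of which 57 are microRNA genes, 23 small nucleolar RNA genes and 1 a lincRNA. Of these, 64 had no read in any library, and no gene had more than 4 reads in a library. Summed over all 81 genes there were 21 and 16 reads in wild-type and 9 and 15 in Bmal1-/- libraries. Poly(A) libraries do not capture mature microRNAs or most small nucleolar RNAs, so these counts say nothing about the mature small RNAs, and none of the 81 genes passed the filter.

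Among the paternally expressed genes, Dio3 (ENSMUSG00000075707) encodes the type 3 iodothyronine deiodinase, the selenoenzyme that inactivates thyroid hormone. It is a gene of a single exon at mm9 chr12:111517278-111519307 on the + strand, 738.1 kb from the Meg3 start. The Dio3 promoter window is shown because Dio3 was the member that was highest relative to wild-type. The window of Dlk1, at the opposite end of the cluster, is given for comparison, with CG dinucleotides in capitals and RefSeq GRCm38.p6 coordinates.
Dio3 (chr12:110278980-110279279, + strand): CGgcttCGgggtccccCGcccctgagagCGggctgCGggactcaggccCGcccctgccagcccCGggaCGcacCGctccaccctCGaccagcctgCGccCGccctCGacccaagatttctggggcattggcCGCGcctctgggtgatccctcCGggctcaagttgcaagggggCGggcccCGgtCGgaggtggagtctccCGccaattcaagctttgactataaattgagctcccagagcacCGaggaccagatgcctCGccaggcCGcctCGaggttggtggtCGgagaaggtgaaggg
Dlk1 (chr12:109452573-109452872, + strand): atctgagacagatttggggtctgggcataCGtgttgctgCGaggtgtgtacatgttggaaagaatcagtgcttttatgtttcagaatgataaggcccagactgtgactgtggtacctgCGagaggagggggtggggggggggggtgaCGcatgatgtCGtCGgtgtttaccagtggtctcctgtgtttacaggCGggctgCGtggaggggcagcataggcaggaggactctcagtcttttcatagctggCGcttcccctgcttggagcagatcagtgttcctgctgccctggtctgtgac
The Dio3 window held 25 CG dinucleotides, a number reached by 18.4% of all windows, and the Dlk1 window held 9, reached by 45.8%.

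Dio3 was at normalized values of 239 and 195 in wild-type and of 637 and 619.8 in Bmal1-/- libraries. Both Bmal1-/- libraries were above both wild-type libraries. The ratio of the means was 2.89 (counting interval 2.59 to 3.24), and the log2 difference was 1.53 (standard error 0.09). Dio3 therefore moved in the opposite direction to the maternal RNAs. Dio3 over Meg3 was 0.208 and 0.190 in wild-type and 1.08 and 1.11 in Bmal1-/- libraries.

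Dio3os (ENSMUSG00000090962) is a non-coding RNA transcribed away from Dio3 on the − strand, at mm9 chr12:111513594-111516278, and its parental origin is not assigned here. Its annotated start lies 737.1 kb from the Meg3 start, next to that of Dio3. Normalized values were 41.1 and 46.7 in wild-type and 52.6 and 54.4 in Bmal1-/- libraries. The Bmal1-/- values were above the wild-type values, with a ratio of 1.22 (counting interval 0.909 to 1.64). The log2 difference was 0.28 (standard error 0.21) and came to 0.04 with quantile normalization. Dio3 over Dio3os was 5.82 and 4.18 in wild-type and 12.1 and 11.4 in Bmal1-/- libraries, so the ratio of Dio3 to its divergent neighbour was higher in both Bmal1-/- libraries. The Dio3os window held 53 CG dinucleotides, a number reached by 0.451% of all windows.

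**Figure D2:**
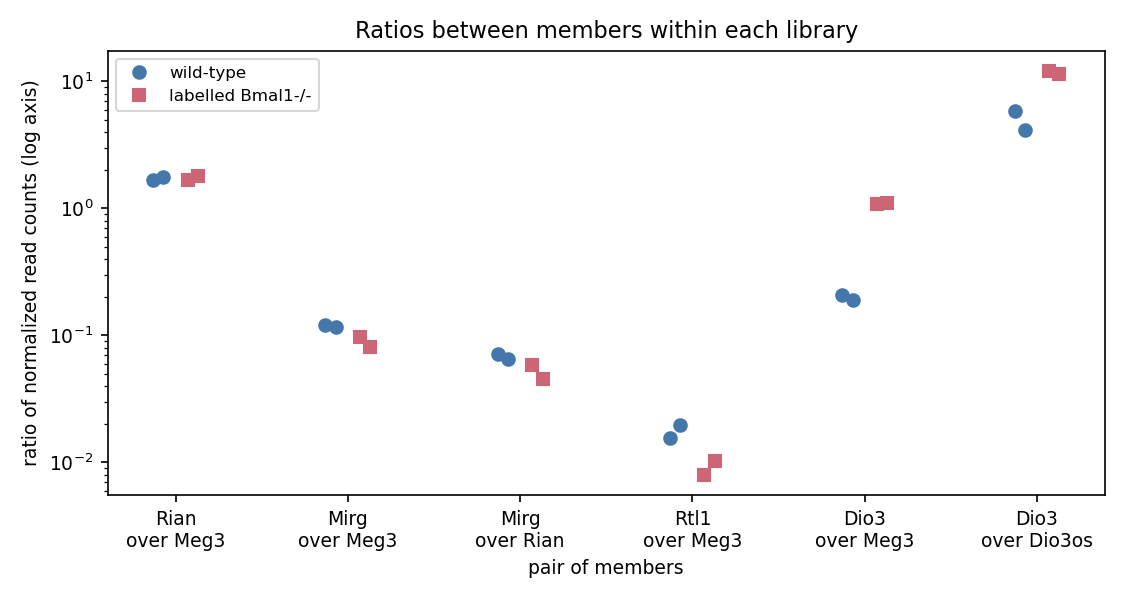
Ratios of normalized read counts between pairs of members within each library, on a log axis (circles, wild-type; squares, labelled Bmal1-/-; 2 libraries each). Rian over Meg3 overlaps between genotypes, whereas Dio3 over Meg3 is 0.208 and 0.190 in wild-type and 1.08 and 1.11 in Bmal1-/- libraries.

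Dlk1 (ENSMUSG00000040856) encodes a transmembrane protein with EGF-like repeats related to Notch ligands and lies at mm9 chr12:110691033-110701546, at −88.2 kb from the Meg3 start. Normalized values were 7.37 and 6.37 in wild-type and 10.3 and 10.5 in Bmal1-/- libraries, from 7, 6, 11 and 11 reads. The ratio of 1.51 had a counting interval of 0.730 to 3.27. Dlk1 was thus close to the floor of 3 reads, which corresponded to values of 2.82 to 3.19.

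Rtl1 (ENSMUSG00000085925), a gene derived from a retrotransposon and needed in the placenta, lies on the − strand at mm9 chr12:110827404-110838540, between Meg3 and Rian. Normalized values were 17.9 and 20.2 in wild-type and 4.70 and 5.72 in Bmal1-/- libraries, from 17, 19, 5 and 6 reads. Rtl1 was therefore at 27.4% of wild-type (counting interval of the ratio 0.126 to 0.549) and went in the direction of the maternal RNAs, unlike Dio3. The log2 difference was −1.69 (standard error 0.42), with −0.93 at a pseudocount of 10 and −2.69 with quantile normalization. Rtl1 over Meg3 was 0.0156 and 0.0196 in wild-type and 0.00794 and 0.0103 in Bmal1-/- libraries. The maternal chromosome transcribes the opposite strand of Rtl1. The kit keeps the strand, but whether the counting used it is not given in the sources used here, so reads of Rtl1 and of the maternal antisense RNA cannot be told apart.

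The antisense RNA at Rtl1 is the precursor of microRNAs that are fully complementary to the Rtl1 mRNA and direct its cleavage. The annotation places 6 microRNA genes opposite Rtl1, Mir431, Mir433, Mir127, Mir434, Mir432 and Mir136, each with 0 reads in all 4 libraries. At these depths 0 reads allow up to 3 reads in a library, and mature microRNAs were not captured by the assay. The mature sequences from RefSeq are shown because they read the same bases as Rtl1 on the opposite strand, with the seed (bases 2 to 8) in capitals.
mmu-miR-431-5p: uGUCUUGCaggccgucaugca
mmu-miR-431-3p: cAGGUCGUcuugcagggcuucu
mmu-miR-433-5p: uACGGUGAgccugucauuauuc
mmu-miR-433-3p: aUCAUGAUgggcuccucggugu
mmu-miR-127-5p: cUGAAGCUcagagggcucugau
mmu-miR-127-3p: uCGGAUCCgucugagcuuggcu
mmu-miR-434-5p: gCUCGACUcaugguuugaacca
mmu-miR-434-3p: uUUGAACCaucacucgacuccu
mmu-miR-432: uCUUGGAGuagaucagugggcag
mmu-miR-136-5p: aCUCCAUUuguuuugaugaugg
mmu-miR-136-3p: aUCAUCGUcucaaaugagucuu

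Levels of different genes were compared as reads per kilobase of exon and per 1000000 reads on genes (RPKM). In wild-type cells Rian was highest at 10.3 and 9.78 RPKM, followed by Dio3 at 5.14 and 4.21 and Meg3 at 2.78 and 2.49. Mirg (mean 1.78, SD 0.172) and Dio3os (1.40 and 1.60) came next, and their nearest values, 1.66 and 1.60, lay closer together than the replicates of either. Rtl1 (0.123 and 0.139) and Dlk1 (0.0569 and 0.0493) were lowest. In Bmal1-/- cells Dio3 took the highest place at 14.3 and 13.9 RPKM, above Rian at 5.49 and 5.53. Dio3os (1.87 and 1.93) then lay above Meg3 (1.49 and 1.40) and Mirg (0.824 and 0.643). Dlk1 (0.0834 and 0.0845) lay above Rtl1 (0.0337 and 0.0410) in these libraries, with few reads for both. The order of the members in RPKM thus differed between the genotypes, with Dio3 and Dio3os each passing at least 1 maternal RNA. This order depends on the annotated exon lengths, 18089 bases for Meg3 and 1281 for Dio3os. The annotation used for counting is not given. In normalized values of Bmal1-/- libraries, Dio3os (mean 53.5) lay below Meg3 (574). Dio3 (628) lay below Rian (990.5) and above Meg3.

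All 7 members had groups that did not overlap. Dlk1, Dio3os and Dio3 were above wild-type in both Bmal1-/- libraries, as were 34.6% of the 14510 genes tested, and Meg3, Rtl1, Rian and Mirg were below, as were 41.4%. Since the members were selected on this contrast, nothing is read from these counts. Over all genes tested, 24.0% were higher and 28.6% lower at an adjusted p-value under 0.05, and 5.75% and 1.45% with a fold change above 2 as well. These shares are the reference for the gene lists that follow and for the marker lists above. Past 2-fold the calls were 835 higher and 211 lower, but 590 and 426 with quantile normalization. The log2 fold changes of the 6 members ran from −1.69, for Rtl1, which passed the filter only through wild-type, to 1.53. Their median of −0.92, beside −0.03 for all genes tested, is likewise given as a description only.

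The position of the members was compared with that of their neighbours. Within 1 Mb on either side of the cluster the annotation lists 34 genes, of which 21 were tested. Of these, 4 were higher and 5 lower at an adjusted p-value under 0.05, with a median log2 fold change of −0.11. The number past the threshold fell to 5 in DESeq2 and to 5 in limma without the trend. The nearest tested gene before Dlk1, at 399.4 kb, was Begain, which encodes a synaptic protein, with 40.0 and 38.2 in wild-type and 56.4 and 37.2 in Bmal1-/- libraries (log2 fold change 0.22, limma adjusted p = 0.45). The nearest after Dio3, at 166.2 kb, was Ppp2r5c, a regulatory subunit of protein phosphatase 2A, with 3148 and 3271 against 2838 and 2809. It was lower (log2 fold change −0.18, limma adjusted p = 0.0014), with an adjusted p of 0.067 in limma without the trend. Begain ran from −0.07 to 0.52 with 1 library left out in turn, so its direction is not settled.

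Of the flanking genes past the threshold, Gm3452, at 577.5 kb from Dio3, had the largest fold change, with 51.6 and 51.0 in wild-type and 98.6 and 132 in Bmal1-/- libraries (log2 fold change 1.14, limma adjusted p = 1.9e-05). Gm3452 lies within the span of Zfp839, on the opposite strand. Whether counting used the strand is not given, so the source of its reads is uncertain. Dync1h1, the heavy chain of cytoplasmic dynein, was higher (log2 fold change 0.41, limma adjusted p = 7.8e-08). Evl, a regulator of actin filaments, was lower (−0.31, limma adjusted p = 0.0032), a call lost in DESeq2 (adjusted p = 0.083) and without Bmal1-/- replicate 2. Ankrd9 was lower (−0.31, limma adjusted p = 0.015), with an adjusted p of up to 0.19 (DESeq2) under the 5 alternatives that ended the call. The 513 tested genes of chromosome 12 had a median log2 fold change of 0.01, and the 62 beyond Dio3 one of −0.04. The chromosome as a whole was therefore near the median of all genes.

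**Figure D3:**
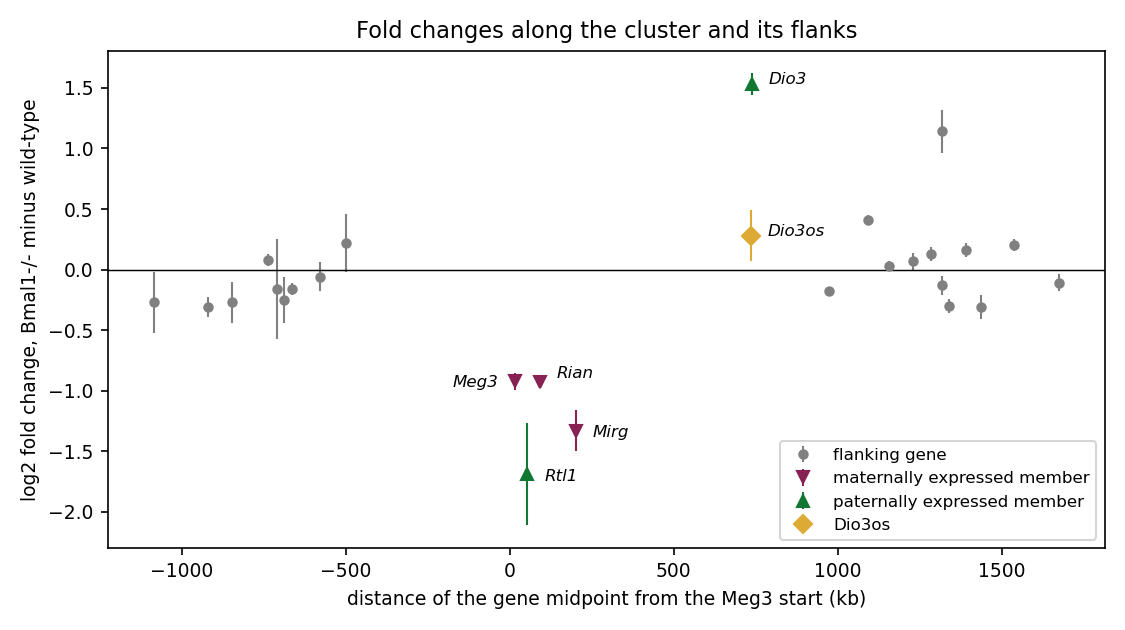
Log2 fold change (Bmal1-/- minus wild-type, on log2(value + 1), 2 libraries each) against the distance in kb of each gene's midpoint from the Meg3 start, for the 6 cluster members that passed the filter and the 21 flanking genes tested, with bars of 1 standard error. Meg3, Rtl1, Rian and Mirg lie at −0.92 or below, Dio3 at 1.53, and the flanking genes between −0.31 and 1.14, with Gm3452 the highest and Dync1h1 next at 0.41.

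The genes that set or maintain imprints were examined next, since the methylated control region of the cluster is kept by such factors. Of 29 genes tested, 12 were higher and 8 lower in Bmal1-/- libraries at an adjusted p-value under 0.05, with a median log2 fold change of 0.07. Limma without the trend left 10 of the 29 past the threshold. Dppa3, which protects imprints from demethylation in the zygote, was lower, with 1148 and 1157 in wild-type and 601 and 590.3 in Bmal1-/- libraries (log2 fold change −0.95, limma adjusted p = 5.4e-11). The dioxygenase gene Tet3, whose product oxidizes methylated cytosine, was higher, with 159 and 159 against 319 and 303 (0.96, limma adjusted p = 1.4e-07). Dnmt3l, a cofactor of the de novo methyltransferases, was higher, with 389 and 321 against 629 and 623 (0.82, limma adjusted p = 1.1e-07). Tet2 was higher as well, with 4999.9 and 4378 against 7376 and 7287 (0.65, limma adjusted p = 1.1e-09). Whether these genes had a part in the values of the cluster was not tested.

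Other imprinted genes give a reference for the cluster. Of 23 paternally expressed genes outside it, 20 were tested, with 6 higher, 6 lower and a median log2 fold change of −0.07. The number past the threshold fell to 7 in limma without the trend. Magel2, a gene of the Prader-Willi region, was higher, with 1.05 and 6.37 in wild-type and 23.5 and 13.4 in Bmal1-/- libraries (log2 fold change 2.27, limma adjusted p = 0.0021). Few reads stood behind it. It reached the filter only through the Bmal1-/- libraries, with a mean of 18.4 against 3.71 in wild-type, so the filter depended on the difference itself. The log2 fold change ran from 1.06 (pseudocount 10) to 3.19 (without wild-type replicate 2), and the call was lost with no filter, in limma without the trend and without Bmal1-/- replicate 1. Peg12 was higher, with 56.9 and 53.1 against 135 and 95.4 (1.03, limma adjusted p = 7e-05). Sfmbt2, a Polycomb group gene, was lower, with 554 and 517 against 295 and 337 (−0.76, limma adjusted p = 2.7e-07). Igf2, a fetal growth factor, was higher, with 35.8 and 40.4 against 63.9 and 64.8 (0.74, limma adjusted p = 0.0042, and 0.067 in DESeq2).

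Of 23 maternally expressed genes outside the cluster, 17 were tested, with 6 higher, 6 lower and a median log2 fold change of −0.06. DESeq2 left 7 of the 17 past the threshold. The growth inhibitor Cdkn1c was lower, with 79.0 and 85.0 in wild-type and 32.9 and 43.9 in Bmal1-/- libraries (log2 fold change −1.09, limma adjusted p = 0.00013). Its neighbour Phlda2, which restrains placental growth, was lower, with 163 and 159 against 94.9 and 75.3 (−0.92, limma adjusted p = 2.1e-05). Osbpl5, of the same region, was higher, with 10.5 and 14.9 against 25.4 and 21.9 (0.86, limma adjusted p = 0.037), a call lost under 6 alternatives. Igf2r, the receptor that clears Igf2, was higher, with 2059 and 1927 against 3606 and 3552 (0.85, limma adjusted p = 6e-12). Both groups of imprinted genes had calls in both directions, as did all genes tested (24.0% higher and 28.6% lower), and a difference from that share was not tested.

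**Figure D4:**
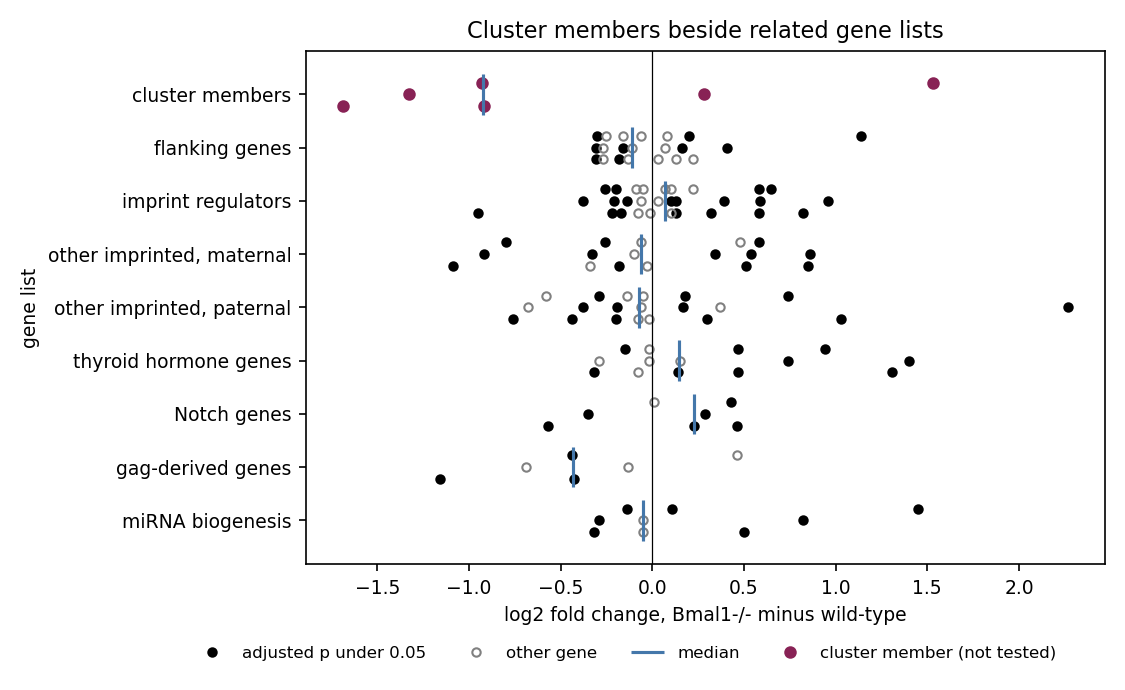
Log2 fold changes (Bmal1-/- minus wild-type) of the cluster members that passed the filter and of the tested genes of each related list, with 1 point per gene and a vertical line at each median. Filled black points had a limma adjusted p-value under 0.05, open points did not, and the members of the cluster, whose median is −0.92, carry no test.

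Dio3 acts in thyroid hormone metabolism. Of 20 other genes of that pathway, 14 were tested, of which 7 were higher and 2 lower, with a median log2 fold change of 0.15. The shares over all genes tested were 24.0% higher and 28.6% lower. The related deiodinase genes Dio1 and Dio2 had no more than 3 reads in any library, so Dio3 was the only 1 of the 3 deiodinase genes above that floor. The thyroid hormone transporter gene Slc16a10 was higher, with 33.7 and 41.4 in wild-type and 94.9 and 106 in Bmal1-/- libraries (log2 fold change 1.40, limma adjusted p = 3.5e-06). Crym, which encodes a cytosolic binding protein of the hormone, was higher, with 17.9 and 19.1 against 46.0 and 48.6 (1.31, limma adjusted p = 0.00022). Slc7a8, a transporter of amino acids and thyroid hormone, was higher, with 113 and 122 against 223 and 229 (0.94, limma adjusted p = 1.4e-06). Klf9, a target gene of the thyroid hormone receptor, was higher, with 2199.7 and 2005 against 3496 and 3511 (0.74, limma adjusted p = 1.1e-10). The 2 lower genes were the receptor gene Thra and Rxrb. Thra had 332 and 317 against 260.2 and 259 (−0.32, limma adjusted p = 0.0058, up to 0.12 under alternatives). Rxrb was at −0.15 (limma adjusted p = 0.038, up to 0.35). Hr, at −0.29, did not pass the test (limma adjusted p = 0.099). A link of these genes to Dio3 was not tested.

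Dlk1 is related to the ligands of Notch receptors. Of 10 Notch receptor and ligand genes, 7 were tested, of which 4 were higher and 2 lower, with a median log2 fold change of 0.23. In limma without the trend, 2 of the 7 passed the threshold. Dlk2, its paralog, had values of 3.16 to 6.68 and was under the filter. The ligand gene Jag1 was lower, with 672 and 553 in wild-type and 434 and 391 in Bmal1-/- libraries (log2 fold change −0.57, limma adjusted p = 1.8e-05). The receptor gene Notch2 was higher (0.46, limma adjusted p = 3.4e-06). Notch1 was higher (0.43, limma adjusted p = 2.6e-05) and Notch4 lower (−0.35, limma adjusted p = 0.0016). The call of Notch1 was lost in limma without the trend (adjusted p = 0.057), and that of Notch4 under 3 alternatives (adjusted p up to 0.075).

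Rtl1 belongs to a family of genes derived from retrotransposon gag sequences. Of 10 others, 6 were tested, of which 0 were higher and 3 lower, with a median log2 fold change of −0.43. DESeq2 left 1 of the 6 past the threshold. Peg10, also imprinted and needed in the placenta, was lower, with 296 and 260.3 in wild-type and 205 and 205 in Bmal1-/- libraries (log2 fold change −0.44, limma adjusted p = 0.0013). Cxx1b was lower (−1.16, limma adjusted p = 0.018), and Ldoc1l was lower (−0.43, limma adjusted p = 0.022). The calls of Cxx1b and Ldoc1l were lost under 5 alternatives each, and Cxx1b shares sequence with its copies Cxx1a and Cxx1c, so that its own value is uncertain. The genes of microRNA processing, which act on the RNAs of Mirg, gave 4 higher and 3 lower of 9 tested, with a median of −0.05. Among them Eif2c4 (Ago4) was higher, with 22.1 and 23.4 against 59.2 and 68.7 (1.45, limma adjusted p = 2.3e-05). Eif2c2 (Ago2), which cleaves targets of fully complementary microRNAs, was higher, with 3288 and 2591 against 5144 and 5168 (0.82, limma adjusted p = 3.9e-09). Eif2c3 (Ago3) was higher (0.50, limma adjusted p = 3.4e-06), and Drosha, the nuclease that cuts the primary transcripts, was lower (−0.32, limma adjusted p = 2.3e-06).

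For members that passed the filter, the genes with the most similar profile over the 4 libraries were found by the Euclidean distance between centred log2(value + 1) values. For Meg3 they were Ndrg1 (distance 0.0395), Pcbp4 (0.0461) and Ctf1 (0.0502), and Rian stood at rank 11 (0.0914). Genes on other chromosomes were thus closer to Meg3 than Rian was. For Mirg the nearest were Nkx6-2 (0.179), Tubb3 (0.193) and Kctd15 (0.217). For Rtl1 they were Kdm5d (0.0759), Rasgrp2 (0.105) and Rragb (0.128). For Dio3 they were Bicc1 (0.0640), Lim2 (0.0844) and Car7 (0.119), and for Dio3os Pxk (0.0214), Acer3 (0.0313) and Gm1631 (0.0326). With 4 libraries in 2 groups, many genes share such a profile.

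Sequence motifs were searched on both strands of the promoter windows of the 6 members with an entry in the RefSeq table, Rtl1 being without one. The E-box core CACGTG, the site of clock factors of the basic helix-loop-helix class, was found in 0 of these windows and in 7.15% of all 32851 windows. The sequence TGCCGC, which is bound by the imprint regulator Zfp57, occurred 1 time in the window of the first Meg3 start and in 11.6% of all windows. A match in such a window describes its letters only.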

How the data were processed

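The authors sequenced stranded mRNA libraries, aligned the reads with STAR 2.5.2b to mm9 and normalized gene counts by trimmed mean of M values (TMM) in NOISeq; bcl2fastq 2.18.0.12 and cutadapt 1.9.1 are also named in the processing notes. The counting program, the annotation and whether counting used the strand are not given in the sources used here. The deposited values are a normalized signal, in which a factor of the library divides the reads of each gene. Columns were matched to samples by their names, in which BKO was read as Bmal1 knockout. Values were whole multiples of the value of 1 read in each library, and whole reads were recovered for 100% of them (tolerance 0.01 of a read). The 37310 gene identifiers matched the GENCODE annotation of NCBIM37 (mm9), which gave positions and exon lengths.

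Differences were fitted with limma 3.58.1 (lmFit and eBayes with trend, R 4.3.3) on log2(value + 1), restricted to the 14510 genes that averaged at least 10, 2 libraries against 2 with no covariate, and adjusted after Benjamini and Hochberg over all of them. Sample titles carry an experiment number, 1 or 2, in both genotypes, which was taken as the replicate number and used as a block in an alternative. No other batch label is given. For genes with low values, this scale makes fold changes too small. The filter uses the mean over all libraries, so a gene can reach it through a single genotype. Among the named genes and markers with a test, Magel2 and Tnnt2 did so through Bmal1-/- libraries, with wild-type means of 3.71 and 7.94. Sox7, Pax6 and Neurod1 did so through wild-type, with Bmal1-/- means of 9.02, 9.46 and 8.03, as did the member Rtl1, which carries no test. The fit was tested on simulated data. On the recovered reads, edgeR 4.0.16 called 1091 genes past 2-fold and DESeq2 862, beside 1046 in limma on log2(value + 1). Ratios of members carry conditional exact binomial 95% intervals on summed reads, which cover counting error only, as does the floor of 3 reads.

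The members and lists were chosen with earlier results of these data known. The lists were written from general knowledge, and 14 of their genes were matched by an older symbol. Snurf, Kcnq1ot1 and Peg13 were not matched. Named genes are the members, the 4 genes of each list with the largest fold changes past an adjusted p-value of 0.05, the nearest tested neighbour on each side, the 3 nearest profiles per member (those of Rian are not reported here) and the cell type markers. Dio1, Dio2, Dlk2 and the microRNA genes opposite Rtl1 were named in addition, after their values were seen. The same holds for Zfp57, Trim28, Setdb1, Dnmt1, Zfp445, Thra, Rxrb, Hr and Zfp839. Alternatives were other pseudocounts (0.5 and 10), no filter or a mean of at least 100, median-ratio size factors, equal totals, quantile normalization, limma without the trend, edgeR and DESeq2 1.42.0 on whole reads, the replicate number as a block and each library left out in turn. The planned comparison of member proteins was not made. The interval was taken to end with Dio3, not with Dio3os as planned, which left the number of flanking genes the same. Sequences were read with pandas 2.3.3, intervals came from scipy 1.17.1, and figures from matplotlib 3.10.9 (Python 3.11.15, numpy 2.4.6).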

Additional observations from a re-analysis of the deposited data

How the results depend on the processing

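Dio3, Meg3, Mirg, Rian and Rtl1 kept their direction under all alternatives that gave them a value, with Dio3 between 1.39 and 1.68, Mirg between −1.52 and −1.15, Rian between −0.97 and −0.87, Rtl1 between −2.69 and −0.93, and Meg3 no weaker than −0.84. Dio3os lay between 0.04 and 0.37. The median of the members lay between −0.98 and −0.86. Under a mean of at least 100, 318 of 10486 genes were called in place of 1046 of 14510. Quantile normalization gave 590 higher and 426 lower genes (58.1% higher, against 79.8%). No scaling moved the median of all genes by more than 0.06.

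Limma without the trend lowered the counts of genes with an adjusted p-value under 0.05 to 2 for Notch genes, 5 for flanking genes, 10 for imprint regulators and 7 for other paternally expressed genes. DESeq2 lowered them to 5 for flanking genes, 1 for gag-derived genes and 7 for other maternally expressed genes. The cause was not tested. With 1 library left out in turn, flanking genes past the threshold numbered 5 to 9 and gag-derived genes 1 to 2. The lone library of a genotype is then assumed to vary like the others. Begain, which did not pass the test, came to −0.03 with quantile normalization and to −0.07 (without Bmal1-/- replicate 1) to 0.52 with a library left out, and Pdgfra to −0.40 to 0.13 (without wild-type replicate 1).

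With the replicate block, 1056 genes were called. Libraries with the same number did not deviate together (correlation −0.02 across genes), so the numbers were not used as pairs elsewhere. Low counts limit Dlk1 and Rtl1 most.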
